A study of Arabidopsis thaliana with 40 samples.

Results

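The genes described are the 43 nuclear genes of *Arabidopsis thaliana* that encode the light-harvesting antenna proteins of both photosystems and the nuclear-encoded photosystem subunits. They were taken by gene ID, whatever their values, from 33602 gene IDs in the count files, 33323 of them nuclear. They fall into 6 antenna genes of photosystem I (*LHCA1* to *LHCA6*), 14 antenna genes of photosystem II (LHCB), 12 subunit genes of photosystem I (PSA) and 11 subunit genes of photosystem II (PSB). RNA was sequenced from Col-0 seedlings of *ubp12/13*, *ubp12*, *ubp13* and wt, 3 biological replicates each, grown for 15 days on plates in long days and harvested 6 to 8 h after lights on. The alleles were *ubp12-1* and *ubp13-3*, singly or together, and wt carried neither. *UBP12* and *UBP13* encode ubiquitin-specific proteases that remove ubiquitin from histone H2A (the mark H2Aub1), and the study asked how their loss affects gene repression. *ubp13-3* is a weak allele, so *ubp12/13* is no null for both genes. The double mutant is stunted and sterile and came from parents heterozygous for *ubp13-3*, with homozygous plants picked by genotype and checked by phenotype.

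The libraries held 6545534 to 15225396 counts on nuclear genes (12145023 to 15225396 in *ubp12/13*, 6822401 to 9109250 in *ubp12*, 10190084 to 12768034 in *ubp13* and 6545534 to 9494373 in wt). Chloroplast and mitochondrial genes took 6.15% of the counts in wt replicate 3 and 0.268% to 1.52% in the other 11 libraries, and they were left out. All 43 genes passed the filter on low counts in every comparison, so none had to be high in a particular genotype to be tested. Levels are given as CPM (TMM-scaled counts divided by library size, where TMM is the trimmed mean of M values), and log2FC is the log2 fold change, the first-named genotype over the other. A gene passed the test when the quasi-likelihood test of edgeR gave it an adjusted p under 0.05, with Benjamini-Hochberg adjustment over every nuclear gene tested. SE, the standard error of a log2FC, was derived as the absolute log2FC divided by the square root of the F statistic of that test. *UBP12* averaged 32.4 ± 4.81 CPM in *ubp12/13*, 25.7 ± 2.19 CPM in *ubp12*, 91.6 ± 3.02 CPM in *ubp13* and 99.2 ± 2.61 CPM in wt (SD, n = 3 each), and was lower in both genotypes labelled with its mutation (log2FC -1.62 in *ubp12/13* and -1.95 in *ubp12*). *UBP13* stood at 77.8, 78.0 and 80.8 CPM in *ubp12/13*, 59.2, 64.3 and 62.6 CPM in *ubp12*, 149, 171 and 153 CPM in *ubp13*, and 62.4, 63.4 and 64.0 CPM in wt. Counts over the whole gene do not show whether a transcript with an insertion is intact, so the higher *UBP13* count in *ubp13* checks no label. *UBP13* also differed between the genotypes with *ubp13-3*. Its log2FC against wt was 1.32 in *ubp13* and 0.32 in *ubp12/13*, and it was -1.01 in *ubp12/13* against *ubp13*, each past the test. The cause of this difference was not tested, and it limits comparisons that use both genotypes.

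Photosystems are complexes of chlorophyll-binding proteins in the thylakoid membrane of the chloroplast. Their reaction centres are encoded largely in the chloroplast genome, while the antenna proteins, which gather light and pass its energy on, and many smaller subunits are encoded in the nucleus and imported. These nuclear genes are among the most strongly expressed genes of green tissue, are induced by light, cycle with the circadian clock and are activated by the GOLDEN2-LIKE (GLK) transcription factors.

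The 43 genes took a smaller share of the nuclear counts in *ubp12/13* than in any other genotype. Their summed counts made up 16.6%, 16.0% and 16.9% of the nuclear counts in *ubp12/13*, 23.1%, 23.7% and 24.3% in *ubp12*, 23.6%, 25.2% and 25.2% in *ubp13*, and 22.5%, 20.9% and 21.7% in wt. The double mutant lay below the wt range and both single mutants lay above it. The antenna genes of photosystem II held the largest part, 8.57% to 9.39% in *ubp12/13*, 12.2% to 13.9% in *ubp12*, 12.4% to 14.3% in *ubp13* and 10.9% to 11.7% in wt. In bulk RNA of whole seedlings, fewer cells of a type and less RNA per cell cannot be told apart.

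**Figure D1:**
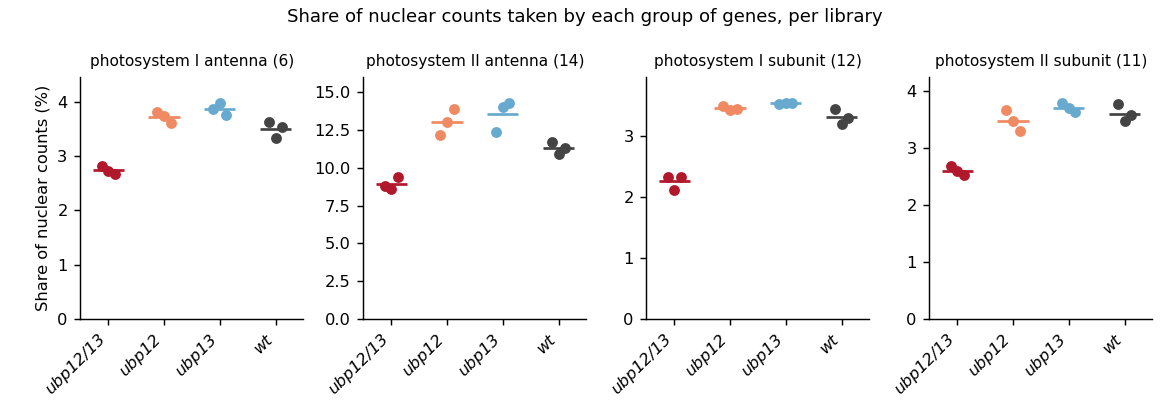
Share of nuclear counts (%, y axis from 0) taken by the antenna and subunit genes of each photosystem in each library (points; line, mean of 3), by genotype, with the number of genes in parentheses. In all 4 panels the 3 *ubp12/13* libraries lie below the 3 wt libraries, and photosystem I antenna genes in *ubp12/13* end at 2.81% against a lowest wt value of 3.33%.

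Of the 43 genes, 37 fell in *ubp12/13* relative to wt, where 15.1% of the 17916 nuclear genes tested did, and 0 rose, where 16.0% of all genes did. By unadjusted p under 0.05, 39 were lower and 0 higher. The share of all genes by unadjusted p was not counted, but it cannot be under the 15.1% and 16.0% by adjusted p. DESeq2 called 38 lower and 0 higher, and among all 17916 genes tested it called 2276 lower and 2474 higher. Every log2FC was below 0, with a median of -0.59 (33.4% lower) beside a median of -0.00 over all genes tested. With library totals in place of TMM factors, the median of all genes was 0.15, 1735 of all genes were lower and 4571 higher (2712 and 2860 with TMM), and 30 of the 43 fell, with a median of -0.43. Without wt replicate 3, 33 of the 43 fell, as did 2343 of the 17805 genes tested. In 40 of the 43, all 3 *ubp12/13* libraries lay below all 3 wt libraries, as they did for 23.0% of all genes. Most changes were smaller than 2-fold, and past a log2FC of -1 stood *PSAN* and *PSBW* alone (2 of 43, against 4.02% of all genes). By role, 12 of 12 photosystem I subunit genes fell (median log2FC -0.72), 11 of 11 photosystem II subunit genes (-0.61), 4 of 6 photosystem I antenna genes (-0.42) and 10 of 14 photosystem II antenna genes (-0.53).

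**Figure D2:**
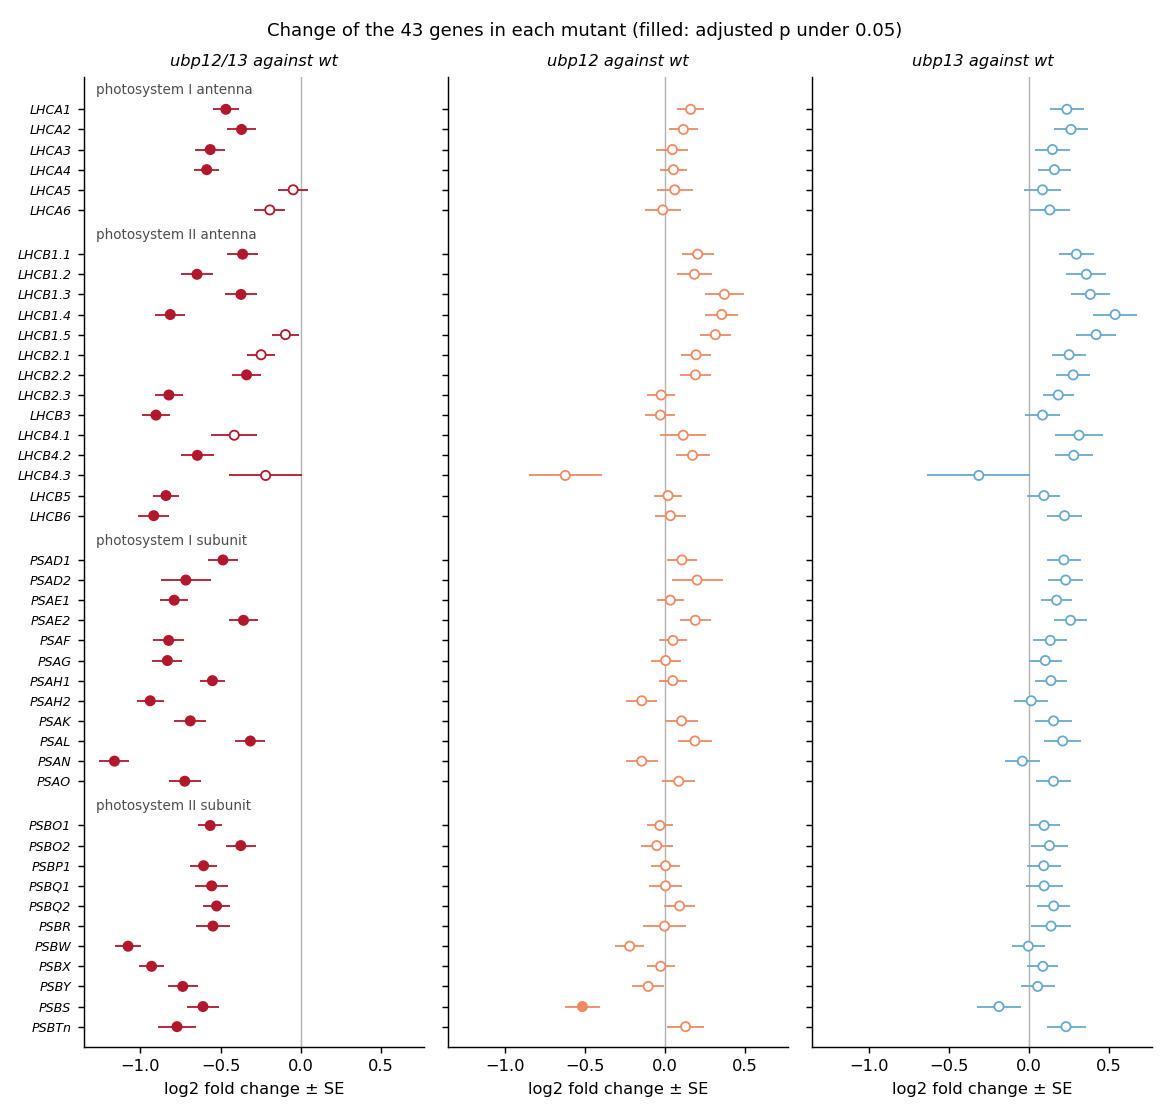
log2 fold change of each of the 43 genes in *ubp12/13*, *ubp12* and *ubp13* against wt (points, with bars for the standard error derived from the F statistic of edgeR), grouped by role, filled where the adjusted p was under 0.05. All 43 points lie left of 0 in *ubp12/13*, down to -1.16 for *PSAN*, while 30 in *ubp12* and 39 in *ubp13* lie right of it.

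Among the photosystem I subunits, *PSAN* fell most. It encodes a small subunit on the lumenal side that helps plastocyanin pass electrons to the complex. *PSAN* (AT5G64040, chromosome 5) had 1383, 1205 and 1254 CPM in *ubp12/13*, 2664, 2719 and 2393 CPM in *ubp12*, 2933, 2832 and 2585 CPM in *ubp13*, and 2809, 2675 and 3106 CPM in wt. The 3 *ubp12/13* libraries were all under the lowest library of every other genotype, and *PSAN* was 55.3% lower than in wt (log2FC -1.16, SE 0.09, adjusted p = 9.52e-05). *PSAH2* and *PSAG* followed. PSAH helps the antenna of photosystem II dock to photosystem I, and *PSAG* helps hold the photosystem I antenna. *PSAH2* (AT1G52230, chromosome 1) had 619.5, 618 and 584 CPM in *ubp12/13*, 1062, 1108 and 988 CPM in *ubp12*, 1254, 1108 and 1161 CPM in *ubp13*, and 1231, 1068 and 1188 CPM in wt. *PSAG* (AT1G55670, chromosome 1) had 1749, 1581 and 1911 CPM in *ubp12/13*, 3018, 2962 and 3378 CPM in *ubp12*, 3106, 3451 and 3447 CPM in *ubp13*, and 2942, 3198 and 3181 CPM in wt. Neither gene's *ubp12/13* libraries overlapped with those of another genotype, and the log2FC against wt were -0.94 (SE 0.09, adjusted p = 0.00016) and -0.83 (SE 0.09, adjusted p = 0.000402). The other 9 genes had log2FC from -0.31 to -0.82. *PSAF*, which docks plastocyanin, stood at -0.82, *PSAO* and *PSAK*, which sit at the antenna side, at -0.72 and -0.69, and *PSAL*, which joins PSAH in docking the antenna, at -0.31. The *PSAL* call was lost without wt replicate 1 (adjusted p = 0.0667) or 3 (0.0529) and without *ubp12/13* replicate 1 (0.113) or 2 (0.0984), and also with library totals in place of TMM (0.157) and with the replicate number as a block (0.0568).

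Among the photosystem II subunits, the genes of the low-molecular-mass subunits *PSBW*, *PSBX*, *PSBTn* and *PSBY* had the lowest log2FC. *PSBW* (AT2G30570, chromosome 2), which stabilizes the complex of photosystem II with its antenna, had 1508, 1468 and 1483 CPM in *ubp12/13*, 2801, 2645 and 2629.9 CPM in *ubp12*, 3282, 3108 and 2985 CPM in *ubp13*, and 2982, 3027 and 3389 CPM in wt. It was 52.6% lower in *ubp12/13* than in wt (log2FC -1.08, SE 0.08, adjusted p = 7.89e-05), with a gap between 1508 CPM, the highest *ubp12/13* library, and 2630 CPM, the lowest library of any other genotype. *PSBX* (AT2G06520, chromosome 2) had 1099, 1016 and 1113 CPM in *ubp12/13*, 2044, 1929.6 and 2067 CPM in *ubp12*, 2117, 2229.7 and 2183 CPM in *ubp13*, and 2080.2, 2049.7 and 2017 CPM in wt. *PSBTn* (AT3G21055, chromosome 3) had 768, 657 and 709 CPM in *ubp12/13*, 1381, 1278 and 1322 CPM in *ubp12*, 1434, 1401 and 1438 CPM in *ubp13*, and 1412, 1147 and 1079 CPM in wt. Both encode small subunits as well, and in both the *ubp12/13* libraries lay apart from all others (*PSBX* log2FC -0.93, SE 0.08, adjusted p = 0.000107; *PSBTn* log2FC -0.77, SE 0.12, adjusted p = 0.00168). *PSBY*, another small subunit, had a log2FC of -0.74. PSBO, PSBP and PSBQ form the lumenal cap over the site that splits water, and their genes had log2FC of -0.61 (*PSBP1*), -0.56 (*PSBO1*), -0.56 (*PSBQ1*), -0.53 (*PSBQ2*) and -0.37 (*PSBO2*), all past the test. *PSBR*, a lumenal subunit, stood at -0.55, and *PSBS*, which senses lumen pH and starts the release of excess energy as heat, at -0.61. The *PSBO2* call was lost without *ubp12/13* replicate 1 (adjusted p = 0.0568) or 2 (0.0539) and with library totals in place of TMM (0.0717).

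The photosystem I antenna consists mainly of the products of *LHCA1* to *LHCA4*, and these 4 genes fell together. *LHCA4* (AT3G47470, chromosome 3) had 8124, 8032 and 8276 CPM in *ubp12/13*, 12834, 12888 and 12337 CPM in *ubp12*, 13641, 14177 and 13117 CPM in *ubp13*, and 12460.2, 11431 and 12769.7 CPM in wt. *LHCA3* (AT1G61520, chromosome 1) had 5115, 4708 and 4539 CPM in *ubp12/13*, 7889, 7273 and 6770.4 CPM in *ubp12*, 8168, 8097 and 7233 CPM in *ubp13*, and 7506, 6389.8 and 7326 CPM in wt. *LHCA1* (AT3G54890, chromosome 3) had 7588, 7238 and 7717 CPM in *ubp12/13*, 11639.9, 11345 and 11842 CPM in *ubp12*, 11949.5, 12928 and 11810.2 CPM in *ubp13*, and 11067, 9704 and 10367 CPM in wt. In each, the highest *ubp12/13* library was under the lowest library of the other genotypes (*LHCA4* log2FC -0.59, SE 0.08, adjusted p = 0.000857; *LHCA3* log2FC -0.56, SE 0.09, adjusted p = 0.00237; *LHCA1* log2FC -0.47, SE 0.08, adjusted p = 0.00315), and *LHCA2* had a log2FC of -0.37 (adjusted p = 0.0141). The *LHCA2* call was lost with library totals in place of TMM (adjusted p = 0.0666). *LHCA5* and *LHCA6* encode minor antenna proteins that link photosystem I to the NDH complex of cyclic electron flow, and they did not pass. *LHCA5* had 179, 166 and 170.3 CPM in *ubp12/13*, against 195, 174 and 162 CPM in wt (log2FC -0.05, adjusted p = 0.731), and *LHCA6* had 189, 172 and 185 CPM in *ubp12/13*, against 232, 199.6 and 192 CPM in wt (log2FC -0.19, adjusted p = 0.159). The libraries of both genotypes overlapped for *LHCA5*, and for *LHCA6* all of *ubp12/13* lay just under wt. Their levels were far under those of *LHCA1* to *LHCA4*.

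In the photosystem II antenna, the LHCB1, LHCB2 and *LHCB3* proteins form trimers, and LHCB4, *LHCB5* and *LHCB6* are the monomers that connect them to the core. *LHCB6* (AT1G15820, chromosome 1) had 3284, 2974 and 3176 CPM in *ubp12/13*, 6198, 6169 and 5868 CPM in *ubp12*, 6814, 6904 and 7046 CPM in *ubp13*, and 6625, 5583 and 5591 CPM in wt. *LHCB3* (AT5G54270, chromosome 5) had 4704, 4684 and 4712 CPM in *ubp12/13*, 8806, 8768 and 8282 CPM in *ubp12*, 8976, 9402 and 9558 CPM in *ubp13*, and 8427, 8243 and 9674 CPM in wt. *LHCB5* (AT4G10340, chromosome 4) had 5327, 5087 and 5012 CPM in *ubp12/13*, 9559, 9526 and 8905 CPM in *ubp12*, 10049.7, 9885 and 9521 CPM in *ubp13*, and 9471, 8473 and 9658 CPM in wt. These are the genes of the group with the lowest log2FC (*LHCB6* log2FC -0.92, SE 0.10, adjusted p = 0.00029; *LHCB3* log2FC -0.90, SE 0.09, adjusted p = 0.000198; *LHCB5* log2FC -0.84, SE 0.08, adjusted p = 0.000231), and again no *ubp12/13* library reached the range of another genotype. All are the only copy of their subunit among the 43 genes.

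Several subunits have more than 1 gene copy, and in LHCB1, LHCB2 and LHCB4 some copies passed and others did not; no difference between copies was tested. LHCB1 has 5 copies, *LHCB1.1*, *LHCB1.2* and *LHCB1.3* side by side on chromosome 1 and *LHCB1.4* and *LHCB1.5* head to head on chromosome 2 with 1038 bp between them. *LHCB1.4* (AT2G34430) had 4539.6, 4449 and 5082 CPM in *ubp12/13*, 9420.3, 10933 and 11265 CPM in *ubp12*, 9799.7, 13485 and 12576 CPM in *ubp13*, and 7795, 7893 and 9028 CPM in wt, and was 43.1% lower in *ubp12/13* than in wt (log2FC -0.81, SE 0.09, adjusted p = 0.000455). *LHCB1.5* (AT2G34420), its neighbour, had 11978, 11364 and 13049 CPM in *ubp12/13*, 14693, 15876 and 17792 CPM in *ubp12*, 14881, 19937 and 17141 CPM in *ubp13*, and 13068, 12304 and 13492 CPM in wt, with *ubp12/13* and wt libraries that overlapped (log2FC -0.10, SE 0.08, adjusted p = 0.42), and with library totals in place of TMM its log2FC was 0.055. So within a pair of divergent neighbours 1 copy was far below wt and the other within the spread of the replicates.

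Of the copies on chromosome 1, *LHCB1.2* (AT1G29910) had 6891, 6713 and 7789.8 CPM in *ubp12/13*, 10967, 13472 and 13610.5 CPM in *ubp12*, 12569.5, 14496 and 15833 CPM in *ubp13*, and 12384, 10355 and 10734 CPM in wt. *LHCB1.1* (AT1G29920) had 9252, 8746 and 10513 CPM in *ubp12/13*, 12776, 13759 and 15695 CPM in *ubp12*, 13861, 15439.8 and 15673 CPM in *ubp13*, and 13119, 11453 and 12064 CPM in wt. *LHCB1.3* (AT1G29930) had 17832, 16549 and 20860.0 CPM in *ubp12/13*, 25977, 29171 and 37344 CPM in *ubp12*, 26530.2, 32714 and 33939.6 CPM in *ubp13*, and 24642, 22936 and 23902 CPM in wt. *LHCB1.2* had a lower log2FC (-0.65, adjusted p = 0.00175) than *LHCB1.1* (-0.36, adjusted p = 0.0211) and *LHCB1.3* (-0.37, adjusted p = 0.0209), though the difference between the copies was not tested. The *LHCB1.1* call was lost without wt replicate 1 (adjusted p = 0.051) or 3 (0.0506) and without *ubp12/13* replicate 1 (0.0944) or 2 (0.0596), and the *LHCB1.3* call without wt replicate 3 (0.0578) or *ubp12/13* replicate 1 (0.0955) or 2 (0.0536). With library totals in place of TMM, both calls were also lost (0.0667 for *LHCB1.1* and 0.059 for *LHCB1.3*).

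*LHCB2.3* (AT3G27690, chromosome 3) had 1091, 1079.8 and 1253 CPM in *ubp12/13*, 2028, 1962 and 1967 CPM in *ubp12*, 2281, 2366 and 2222 CPM in *ubp13*, and 1996, 1979 and 2075 CPM in wt and fell by 43.5% (log2FC -0.82, SE 0.09, adjusted p = 0.000321). *LHCB2.1* (AT2G05100, chromosome 2) had 4894, 4781 and 5370.3 CPM in *ubp12/13*, 6728, 6502 and 7201 CPM in *ubp12*, 6789, 7425 and 7019.8 CPM in *ubp13*, and 6405, 5555 and 5887 CPM in wt and did not pass (log2FC -0.25, adjusted p = 0.063), although no *ubp12/13* library reached the wt range and it passed in a fit common to all libraries (adjusted p = 0.0381). *LHCB2.2* (AT2G05070, chromosome 2), with 3913, 3753 and 4492 CPM in *ubp12/13*, 5492, 5559 and 6486 CPM in *ubp12*, 5761, 6503 and 6329.7 CPM in *ubp13*, and 5326, 4904 and 5128 CPM in wt, lay between them (log2FC -0.34, adjusted p = 0.0229). Its call was lost without wt replicate 1 (adjusted p = 0.0506) or 3 (0.0563) or *ubp12/13* replicate 1 (0.104) or 2 (0.0712), and with library totals in place of TMM (0.0942). *LHCB4.2* (AT3G08940, chromosome 3) had 2607, 2562 and 2646 CPM in *ubp12/13*, 4745, 4563 and 4461 CPM in *ubp12*, 4884, 5037 and 4899 CPM in *ubp13*, and 4540.1, 3517 and 4154 CPM in wt and fell (log2FC -0.65, SE 0.10, adjusted p = 0.00205). *LHCB4.1* (AT5G01530, chromosome 5), with 4368, 4021 and 3852 CPM in *ubp12/13*, 6484, 5821 and 5350.5 CPM in *ubp12*, 7088, 6848 and 6319 CPM in *ubp13*, and 6796, 4724 and 4786 CPM in wt, did not pass (log2FC -0.42, adjusted p = 0.0569); it did pass by DESeq2 (adjusted p = 0.029), in a fit common to all libraries (0.025), with the replicate number as a block (0.0389), with no filter on low counts (0.0446), with counts thinned to the smallest library (0.0451) and without wt replicate 2 (0.0484). *LHCB4.3* (AT2G40100, chromosome 2), the rarest of the 43 transcripts per kb, had 14.7, 16.7 and 17.5 CPM in *ubp12/13*, 13.3, 12.3 and 11.2 CPM in *ubp12*, 23.5, 10.9 and 11.3 CPM in *ubp13*, and 26.1, 17.6 and 12.2 CPM in wt with overlapping libraries (log2FC -0.22, adjusted p = 0.504), and without wt replicate 1 its log2FC was 0.11.

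**Figure D3:**
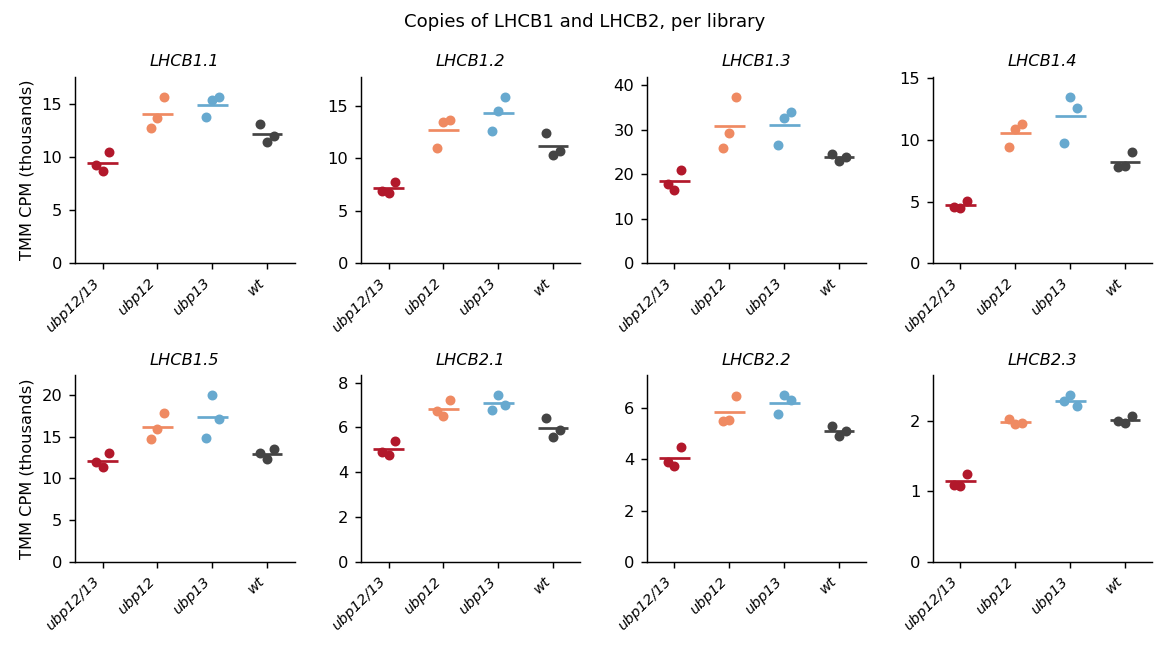
TMM CPM divided by 1000 (y axes from 0) of the 5 copies of LHCB1 and the 3 copies of LHCB2 in each library (points; line, mean of 3), by genotype. *LHCB1.4* and *LHCB2.3* lie far below wt in *ubp12/13*, while the *ubp12/13* libraries of *LHCB1.5* reach into the wt range.

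Reads shared between copies limit these comparisons. Of the 43 genes, 8 had under 90% of their exonic 50-base words unique in the genome (*LHCA2*, the 5 copies of LHCB1, *LHCB2.1* and *LHCB2.2*, 70.5% to 89.4%), and reads that map to several places were dropped by the mapping quality filter before counting. *LHCB2.3* and all 3 copies of LHCB4 had 100% unique words. Without the 8 genes, 31 of the other 35 fell in *ubp12/13* relative to wt.

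Ratios of the raw counts of a pair of copies within a library need no scaling between libraries, and 8 such ratios are given as a description with no test, since the pairs were chosen after their values were seen. Except in PSBQ, the copy with the lower log2FC in *ubp12/13* was placed on top, so the direction of these ratios follows from that choice. No share over other gene pairs was taken. *LHCB1.4* over *LHCB1.5* was 0.379, 0.392 and 0.389 in *ubp12/13*, 0.641, 0.689 and 0.633 in *ubp12*, 0.659, 0.676 and 0.734 in *ubp13*, and 0.597, 0.641 and 0.669 in wt. *LHCB2.3* over *LHCB2.1* was 0.223, 0.226 and 0.233 in *ubp12/13*, 0.301, 0.302 and 0.273 in *ubp12*, 0.336, 0.319 and 0.316 in *ubp13*, and 0.312, 0.356 and 0.352 in wt. Both ratios were lower in *ubp12/13* than in every library of the other genotypes. *PSAE1* and *PSAE2* encode the same stromal subunit near the ferredoxin site, and *PSAE1* over *PSAE2* was 2.45, 2.40 and 2.56 in *ubp12/13*, 2.96, 2.98 and 3.05 in *ubp12*, 3.02, 3.13 and 3.29 in *ubp13*, and 3.14, 3.61 and 3.31 in wt. *PSAH2* over *PSAH1* was 1.09, 1.17 and 1.05 in *ubp12/13*, 1.27, 1.38 and 1.15 in *ubp12*, 1.44, 1.19 and 1.35 in *ubp13*, and 1.48, 1.37 and 1.47 in wt. The *ubp12/13* libraries were below all wt libraries in these ratios and in that of *PSBO1* over *PSBO2* (5 of 8), and overlapped with wt for *LHCB4.2* over *LHCB4.1*, *PSAD2* over *PSAD1* (the ferredoxin docking subunit) and *PSBQ2* over *PSBQ1*. In log2FC, *PSAE1* had -0.79 and *PSAE2* -0.36, *PSAH2* -0.94 and *PSAH1* -0.55, and *PSAD2* -0.72 and *PSAD1* -0.49. The *PSAE2* call was lost without *ubp12/13* replicate 1 (adjusted p = 0.0612) or 2 (0.0604) and with library totals in place of TMM (0.0846).

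**Figure D4:**
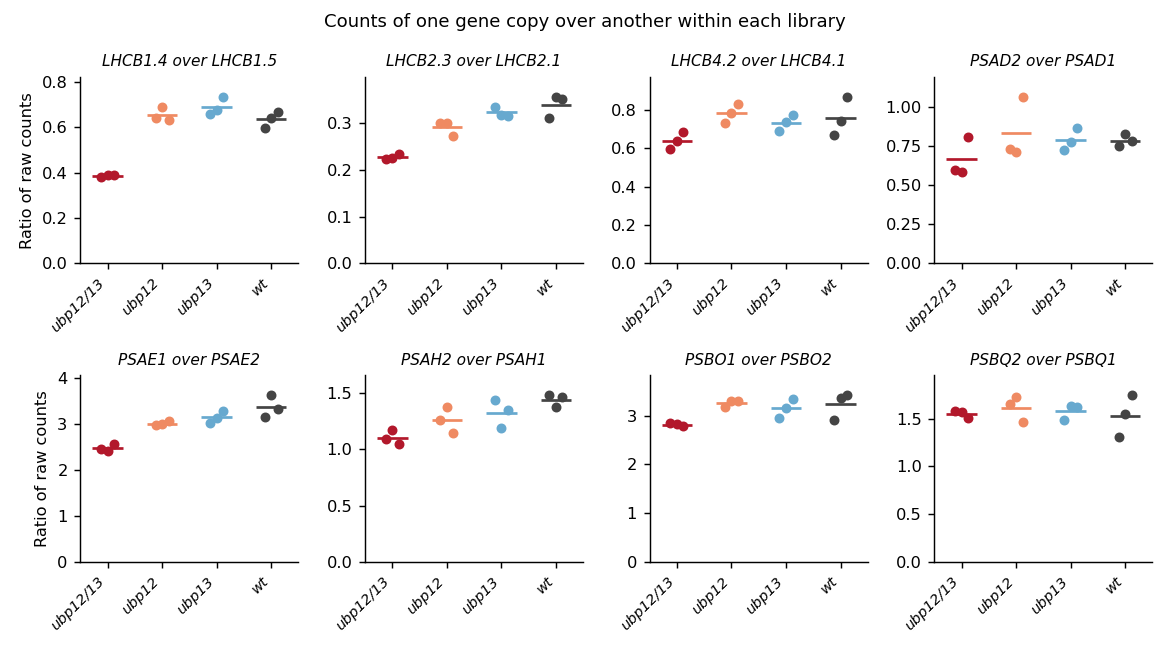
Ratio of the raw counts of 2 gene copies of a subunit within each library (points; line, mean of 3; y axes from 0), by genotype. The ratio of *LHCB1.4* to *LHCB1.5* is 0.379 to 0.392 in *ubp12/13* and 0.597 to 0.669 in wt, and that of *PSBQ2* to *PSBQ1* overlaps between all genotypes.

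The 250 bases before the annotated start were read from TAIR10.1, whose nuclear chromosomes have the coordinates of the authors' TAIR10 build. Shown are the copies of LHCB1 that differed most, which are also neighbours, and the genes with the lowest log2FC of the antenna and of the subunits. They lie at chr2:14524357-14524606 (plus strand), chr2:14523569-14523818 (minus), chr1:5447881-5448130 (minus) and chr5:25629709-25629958 (minus), all written 5' to 3' towards the gene, and capitals mark the motifs found.
LHCB1.4: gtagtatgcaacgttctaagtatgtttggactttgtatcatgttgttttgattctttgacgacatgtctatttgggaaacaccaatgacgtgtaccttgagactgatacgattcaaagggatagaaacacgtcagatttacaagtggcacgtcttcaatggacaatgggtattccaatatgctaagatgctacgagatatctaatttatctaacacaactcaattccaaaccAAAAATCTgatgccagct
LHCB1.5: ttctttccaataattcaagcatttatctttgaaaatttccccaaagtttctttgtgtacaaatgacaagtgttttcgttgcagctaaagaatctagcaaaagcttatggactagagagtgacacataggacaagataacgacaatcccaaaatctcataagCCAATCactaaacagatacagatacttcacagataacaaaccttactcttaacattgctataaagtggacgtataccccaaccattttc
LHCB6: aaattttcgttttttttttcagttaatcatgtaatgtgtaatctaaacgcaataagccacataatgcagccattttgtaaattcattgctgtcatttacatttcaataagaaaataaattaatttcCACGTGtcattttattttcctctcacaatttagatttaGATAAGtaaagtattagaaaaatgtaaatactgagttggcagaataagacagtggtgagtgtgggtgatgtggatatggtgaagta
PSAN: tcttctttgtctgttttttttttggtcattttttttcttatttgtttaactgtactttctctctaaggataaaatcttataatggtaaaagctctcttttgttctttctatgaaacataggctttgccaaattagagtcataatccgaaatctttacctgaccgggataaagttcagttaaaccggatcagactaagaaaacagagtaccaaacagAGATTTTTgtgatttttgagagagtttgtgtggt
Motifs were searched on both strands: the G-box CACGTG, bound by light-signalling factors such as *HY5* and the PIF proteins, the I-box GATAAG, the CCA1-binding site AAAAATCT, the evening element AAAATATCT, and CCAATC, a motif of GLK target promoters. *LHCB1.4* has a CCA1-binding site 18 bases before its start and *LHCB1.5* a CCAATC, *LHCB6* has a G-box and an I-box, and *PSAN* a CCA1-binding site, read on the other strand, 34 bases before its start. Of the 43 promoters, 20.9% (9) held a G-box, against 6.58% of the 26711 promoters of protein-coding genes, 20.9% (9) an I-box against 12.2%, 25.6% (11) CCAATC against 10.2%, 11.6% (5) a CCA1-binding site against 6.74%, and 2.33% (1, *LHCA5*) an evening element against 2.40%. These shares are descriptions. The median log2FC in *ubp12/13* was -0.59 for the 9 genes with a G-box and -0.59 for the 34 without, -0.65 with and -0.58 without an I-box, -0.72 with and -0.56 without a CCA1-binding site, and -0.47 with and -0.67 without CCAATC, with ranges that overlapped in each case.

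Few of the genes passed in the single mutants. In *ubp12*, 1 of 43 was lower than wt (0.706% of 17712 genes tested) and 0 were higher (1.08% of all), with a median log2FC of 0.05. By unadjusted p under 0.05, 3 were higher (8.19% of all) and DESeq2 called 0 higher (288 of all 17712 genes tested). The gene that fell was *PSBS* (AT1G44575, chromosome 1), which had 1249, 1296 and 1184 CPM in *ubp12/13*, 1439, 1287 and 1258 CPM in *ubp12*, 1933, 1629.6 and 1437 CPM in *ubp13*, and 2142, 1768 and 1777 CPM in wt. Its *ubp12* and *ubp12/13* libraries were all below wt (log2FC -0.51, SE 0.11, adjusted p = 0.0443 in *ubp12*), but the *ubp12* call was lost with any 1 of the 6 libraries left out (adjusted p 0.0626 to 0.164). In 7 of 43, all 3 *ubp12* libraries lay above all 3 wt libraries, and so did 9.95% of all genes.

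In *ubp13*, 0 of 43 passed in either direction (lower, 0.00568% of 17615 genes; higher, 0.0227%), with a median log2FC of 0.15 beside -0.00 over all genes. By unadjusted p under 0.05, 11 were higher, against 3.42% of all genes, and 0 lower. DESeq2 called 0 of the 43, and among all 17615 genes tested it called 7 lower and 14 higher. All 3 *ubp13* libraries lay above all 3 wt libraries in 21 of 43, against 5.91% of all genes, and 39 had a log2FC above 0. The highest were *LHCB1.4* (0.54, adjusted p = 0.663) and *LHCB1.5* (0.42, adjusted p = 0.723). The 43 genes share libraries, so their log2FC move together with the wt libraries. Without wt replicate 1 the median was 0.21, and without wt replicate 2 it was 0.11.

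Set against each single mutant, *ubp12/13* was lower for nearly all genes. Against *ubp12*, 39 of 43 fell (13.5% of all genes tested) with a median log2FC of -0.63, and 1 rose (13.0% of all). Against *ubp13*, 41 fell (16.4%) and 0 rose (16.6%; 0 by unadjusted p and 0 by DESeq2), with a median of -0.73. The largest fall was that of *LHCB1.4*, with a log2FC of -1.17 against *ubp12* and -1.36 against *ubp13*. The gene that rose against *ubp12* was *LHCB4.3*, a copy of LHCB4 known to be induced by strong light (log2FC 0.40, SE 0.11, adjusted p = 0.0316), and its call was lost by DESeq2, in a fit common to all libraries, and without *ubp12/13* replicate 2 or 3 or *ubp12* replicate 2 or 3, where 0 of 43 were higher. *PSBS* overlapped between *ubp12/13* and *ubp12* and did not pass (log2FC -0.10, adjusted p = 0.38).

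The effects of the mutations were also compared with their sum on the log2 scale, in a contrast over all 12 libraries. Of the 43 genes, 39 were lower in *ubp12/13* than the sum of the single-mutant changes (7.57% of 18212 genes tested), and 0 were higher (6.83% of all genes; 0 by unadjusted p under 0.05 and 0 by DESeq2). The 4 that did not pass were *LHCA5*, *LHCA6*, *LHCB4.3* and *PSBS*. The median difference from the sum was -0.83.

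Levels were compared between genes as TMM CPM per kb of exon (mean ± SD, n = 3). *LHCB1.3* was the most abundant transcript, with 14970.4 ± 1799.7 in *ubp12/13* and 19371 ± 696 in wt, and *LHCB1.5* came next with 11608 ± 816 in *ubp12/13* and 12397 ± 576 in wt. *LHCA4*, *LHCB1.1* and *LHCB1.2* followed in wt at 9437 ± 541, 9294 ± 642 and 9123 ± 882 CPM per kb. Exon length was not corrected for shared words. *LHCB1.1* and *LHCB1.2* had 79.5% and 89.4% of their 50-base words unique, against 100% for *LHCA4*, so the order of these genes is uncertain. The lowest were *LHCA6* with 156 ± 7.63 in *ubp12/13* and 179 ± 18.2 in wt, *LHCA5* with 160.3 ± 6.13 in *ubp12/13* and 165 ± 15.8 in wt and *LHCB4.3* with 11.2 ± 0.997 in *ubp12/13* and 12.9 ± 4.83 in wt. So the rarest antenna transcripts were among the 6 genes that did not pass in *ubp12/13*, and so was *LHCB1.5*, the second most abundant.

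Other photosynthesis genes were examined in 5 lists, which are compared with the same backgrounds of 15.1% lower and 16.0% higher calls in *ubp12/13* against wt. Of 25 genes of chlorophyll synthesis, 18 fell and 1 rose (median log2FC -0.56). *HEMC* and *HEMA1*, of the early steps towards protoporphyrin, fell (-0.92 and -0.85), and *HEMC* had 185, 192 and 187 CPM in *ubp12/13*, against 389, 349 and 325 CPM in wt. *PORA*, which reduces protochlorophyllide in young etiolated tissue, had 2.12, 2.00 and 1.36 CPM in *ubp12/13*, against 2.50, 7.76 and 7.52 CPM in wt (log2FC -1.66, adjusted p = 0.0157), and lost its call without wt replicate 2 (0.0674) or 3 (0.0597). *HEMA2*, the second copy of the *HEMA1* enzyme, rose (log2FC 0.51, adjusted p = 0.0363), a call lost without any of the wt replicates or *ubp12/13* replicate 1 or 3 (adjusted p 0.0625 to 0.124). The *HEMA2* call was also lost with counts thinned to the smallest library (0.0615).

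Of 14 genes of electron transport and the ATP synthase, 12 fell and 0 rose (1 by unadjusted p, 0 by DESeq2; median log2FC -0.49). *FD2*, the main leaf ferredoxin, had 1363, 1029.5 and 1173 CPM in *ubp12/13*, against 2486, 2168 and 2159.6 CPM in wt (log2FC -0.94). *PETE2*, a plastocyanin gene, stood at -0.93 and *ATPD*, a subunit of the ATP synthase, at -0.88. Of 19 Calvin cycle genes, 13 fell and 0 rose (0 by unadjusted p and by DESeq2; median -0.33), led by the Rubisco small subunit genes *RBCS3B* (-0.99) and *RBCS2B* (-0.78) and by *GAPA2* (-0.81), a glyceraldehyde-3-phosphate dehydrogenase. *RBCS3B* and *RBCS2B* share sequence with other copies (83.5% and 83.1% of their 50-base words unique), so their counts are uncertain. Of 19 genes of antenna assembly, repair and state transition, 8 fell and 3 rose (median -0.25). *LTD* (-0.81), which guides antenna proteins into the chloroplast, *OHP1* (-0.59) and *PSB28* (-0.58), which act in photosystem II assembly, fell, while *LHCB7* (0.54), a rare antenna relative, the phosphatase *TAP38* (0.44) and the kinase *STN8* (0.41) rose. The *PSB28* call was lost without *ubp12/13* replicate 1 (adjusted p = 0.0639) or 3 (0.0607) and with library totals in place of TMM (0.0557). That of *STN8* was lost without wt replicate 2 or 3 or *ubp12/13* replicate 1 or 3 (0.0572 to 0.0617).

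**Figure D5:**
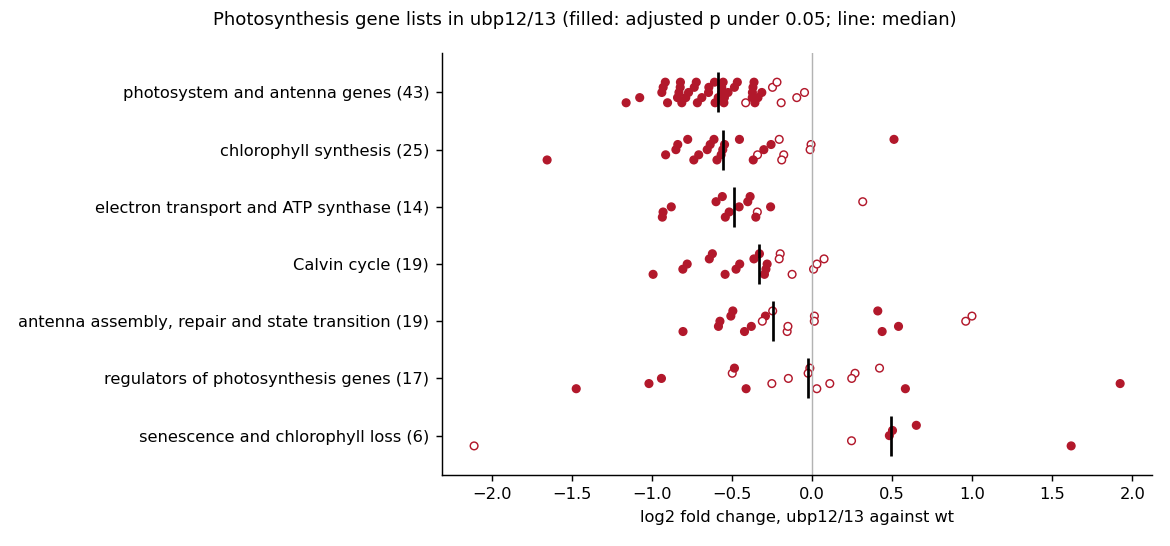
log2 fold change in *ubp12/13* against wt of the photosystem and antenna genes and of 6 other lists (points, 1 per gene tested, filled where the adjusted p was under 0.05; black line, median; vertical spread of points is for legibility; number of genes tested in parentheses). Medians run from -0.59 for the photosystem and antenna genes to 0.49 for the genes of senescence and chlorophyll loss.

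Of 17 known regulators of photosynthesis genes, 5 fell and 2 rose in *ubp12/13* against wt (median log2FC -0.03). *GLK1*, an activator of these genes, was higher in *ubp12/13* and *ubp12*, with 253, 221 and 256 CPM in *ubp12/13*, 289, 260.4 and 304 CPM in *ubp12*, 195, 235 and 253 CPM in *ubp13*, and 176, 147 and 165 CPM in wt (log2FC 0.58, adjusted p = 0.00305 in *ubp12/13*; 0.81, adjusted p = 0.00486 in *ubp12*). Its partner *GLK2* did not pass (log2FC -0.15, adjusted p = 0.604). *GNL*, a GATA factor that promotes greening, had 4.23, 7.12 and 4.69 CPM in *ubp12/13*, 4.58, 6.89 and 6.69 CPM in *ubp12*, 7.42, 10.8 and 6.72 CPM in *ubp13*, and 10.3, 11.9 and 10.7 CPM in wt and was lower in *ubp12/13* (log2FC -1.02).

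Levels of clock genes are given because antenna genes cycle with the clock. *CCA1* and *LHY* are morning factors of the circadian clock and *CCA1* binds antenna promoters, and *TOC1* is expressed in the evening. *CCA1* had 38.0, 62.3 and 61.7 CPM in *ubp12/13*, 51.5, 43.3 and 55.6 CPM in *ubp12*, 78.1, 80.9 and 60.4 CPM in *ubp13*, and 105, 93.7 and 112 CPM in wt. *LHY* had 1.81, 5.12 and 5.82 CPM in *ubp12/13*, 2.57, 3.38 and 2.58 CPM in *ubp12*, 8.10, 8.08 and 4.99 CPM in *ubp13*, and 14.9, 8.76 and 11.9 CPM in wt. *TOC1* had 116, 83.1 and 129.5 CPM in *ubp12/13*, 38.0, 45.9 and 46.7 CPM in *ubp12*, 30.0, 30.5 and 30.7 CPM in *ubp13*, and 23.3, 35.7 and 27.6 CPM in wt. *CCA1* and *LHY* were lower in *ubp12/13* (log2FC -0.94 and -1.47) and also in *ubp12* (-1.05 and -2.05), and *TOC1* was higher in *ubp12/13* (1.92). The *LHY* call in *ubp12/13* was lost without wt replicate 1 (adjusted p = 0.0604). As all libraries come from 1 window of the day, a lower level and a shifted daily rhythm of these genes cannot be told apart, and the part of the clock genes in the lower levels of the photosystem genes was not tested.

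Of 6 tested genes of senescence and chlorophyll loss (7 listed, *SAG12* at 0 counts in every library), 4 rose in *ubp12/13*, where 16.0% of all genes did, and 0 fell (15.1% of all; 0 by unadjusted p and by DESeq2). *SAG13*, a marker of senescence, had the lowest log2FC of the list, -2.11, and did not pass (adjusted p = 0.127). It had 2.04, 0.706 and 0.983 CPM in *ubp12/13*, against 13.2, 0.876 and 0.784 CPM in wt, so that wt replicate 1 stood far above every other library. *ORE1*, a senescence factor, had 6.20, 5.95 and 7.94 CPM in *ubp12/13*, against 1.96, 2.50 and 2.04 CPM in wt (log2FC 1.62). *PAO*, *NYE1* and *PPH*, which act in chlorophyll breakdown, had log2FC of 0.65, 0.50 and 0.48, the *NYE1* call being lost without wt replicate 2 (adjusted p = 0.063) or *ubp12/13* replicate 1 (0.0621) or 2 (0.0502) or with the replicate number as a block (0.0505). The summed level of the list was 404 to 462 CPM in *ubp12/13*, 302 to 337 CPM in *ubp12*, 257 to 328 CPM in *ubp13* and 320.2 to 335 CPM in wt. Its part in the fall of the photosystem genes was not tested.

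The label calls the material whole seedlings, and several markers of roots were nearly absent. Of 12 root markers, *EXPA7*, *COBL9*, *RSL4* and *MYB36* had at most 3 counts in every library, and *IRT1*, *LRX1*, *PRP3* and *ESB1* at most 9. The other 4 could be tested, of which *CASP1* rose (1.66, 1.47 and 1.59 CPM in *ubp12/13*, against 0.109, 0 and 0.157 CPM in wt) and *CASP2* was lower (log2FC -1.22). The *CASP2* call was lost by DESeq2 (adjusted p = 0.0895), in a fit common to all libraries (0.0802) and without wt replicate 2 or 3 or *ubp12/13* replicate 1 or 2 (0.0631 to 0.0671). The root list summed to 163 to 200.5 CPM in *ubp12/13*, 158 to 177 CPM in *ubp12*, 146 to 240.4 CPM in *ubp13* and 152 to 206 CPM in wt, most of it from *PYK10* and *SCR*. Shoot markers outside photosynthesis summed to 540.3 to 620.1 CPM in *ubp12/13*, 614 to 743 CPM in *ubp12*, 590.0 to 798 CPM in *ubp13* and 546 to 662 CPM in wt, with overlapping ranges. Of 8 of them tested in *ubp12/13*, the epidermal factor *ATML1* (-0.60) and the guard cell factor *FAMA* (-0.33) fell and the leaf factor *AS1* (0.91) rose. The *FAMA* call was lost by DESeq2 (adjusted p = 0.109), with library totals (0.265), with no filter on low counts (0.0556), with the replicate number as a block (0.0559) and without any 1 wt library or *ubp12/13* replicate 1 or 3 (0.0662 to 0.143).

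H2Aub1 was mapped in rosette leaves of older *ubp12/13* and wt plants grown on soil, and the deposited list gives the positions of 1285 regions where the mark was raised in *ubp12/13* in both of 2 replicates. Of the 43 genes, 0 had such a peak on the gene body, against 3.95% (1055) of 26712 protein-coding genes. None gained a peak when 2000 bp upstream were added, where 5.92% of protein-coding genes had one. For a list of 43 genes, 0 is near these shares, so no depletion is read from it. The nearest peak lay 881 bp from *LHCA3*, the second nearest 3901 bp from *PSAG*, and the median distance was 49723 bp. The peak list carries no height or depth, so a smaller increase of H2Aub1 on these genes was not measurable here, and peaks of decrease were not analysed here.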

How the data were processed

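Raw counts of 12 libraries, 4 genotypes with 3 replicates each, were used as deposited. The authors trimmed 50-base single-end reads from an unstranded kit with cutadapt 1.18, mapped them to TAIR10 with TopHat, kept reads of mapping quality over 30, and deposited HTSeq 0.11.1 counts per gene. The deposited H2Aub1 peak list carries a score of 1 in every line, which was not used, and the authors made it with MACS2 over H3 and MAnorm, merging peaks found in both replicates.

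Each pair of genotypes was fitted alone with edgeR 4.0.16 (TMM factors, quasi-likelihood test, Benjamini-Hochberg adjustment, R 4.3.3), on nuclear genes over 1 CPM in at least 2 libraries. The study's methods name DESeq2, and DESeq2 1.42.0 was run as an alternative. The difference from the sum of the single mutants was fitted over all 12 libraries. Exon lengths, 50-base words and promoters came from the RefSeq TAIR10.1 genome. No gene of the 43 was missing from it. Library by library values are given for up to 3 genes per role with the largest change past the test, for genes past 2-fold, and for copies of a subunit where copies differ in call. The members and lists were chosen with earlier results of these data known. No batch is named in the labels. Alternatives were RLE factors, library totals, DESeq2, other filters, thinned counts, a replicate block, organelle genes kept, a common fit, members with shared sequence left out and each library left out in turn. The scripts were tested on simulated data.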

Additional observations from a re-analysis of the deposited data

Results flagged for a closer look

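The change in *ubp12/13* differed from the sum of the changes in *ubp12* and *ubp13* for 39 of the 43 genes, all of them lower, by a test of that difference in edgeR over all 12 libraries (7.57% of all genes were lower). Among the genes given library by library, the difference from the sum on the log2 scale passed in 22. In the copies of LHCB1 it was -0.86 for *LHCB1.1*, -1.19 for *LHCB1.2*, -1.13 for *LHCB1.3*, -1.71 for *LHCB1.4* and -0.83 for *LHCB1.5*. In LHCB2 it was -0.69 for *LHCB2.1*, -0.80 for *LHCB2.2* and -0.98 for *LHCB2.3*. In the other photosystem II antenna genes it was -0.96 for *LHCB3*, -0.84 for *LHCB4.1*, -1.10 for *LHCB4.2*, -0.95 for *LHCB5* and -1.17 for *LHCB6*. In the photosystem I antenna it was -0.86 for *LHCA1*, -0.76 for *LHCA3* and -0.80 for *LHCA4*. In the subunits it was -0.94 for *PSAG*, -0.81 for *PSAH2*, -0.98 for *PSAN*, -0.85 for *PSBW*, -0.99 for *PSBX* and -1.13 for *PSBTn*. *LHCB1.4* had the lowest value, and its level was above wt in all *ubp12* and *ubp13* libraries and below wt in all *ubp12/13* libraries. The wt libraries enter all 3 changes, so a high or low wt library moves the difference in every gene.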

How the results depend on the processing

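Between 30 (library totals) and 39 (a fit of all libraries) of the 43 genes were lower in *ubp12/13* than in wt under the alternatives, and 0 were higher in any. Among all 17916 genes tested, 1735 were lower with library totals and 2999 in the fit of all libraries. Library totals gave median log2FC of -0.43 in *ubp12/13*, 0.10 in *ubp13*, -0.47 for *ubp12/13* against *ubp12* and -0.52 against *ubp13*, and a log2FC of 0.055 for *LHCB1.5* in *ubp12/13*. All these medians kept their direction. With organelle genes kept, 0 of the 43 genes were lower in *ubp12*, where 91 of all 17814 genes tested were. DESeq2 and the fit of all libraries called 0 higher in *ubp12/13* than in *ubp12* (1940 and 2401 of all 17890 genes tested). With 1 library left out at a time, 31 to 38 genes were lower in *ubp12/13* than in wt with medians of -0.64 to -0.55, where 1689 to 2377 of all genes were lower. In the single mutants, 0 were lower in *ubp12*, where 27 to 156 of all genes were, with medians of 0.0281 to 0.0935. Medians in *ubp13* were 0.11 to 0.21. In the same runs 0 to 1 were higher in *ubp12/13* than in *ubp12*, 0 to 1 than in *ubp13* and 0 to 1 than the sum of the single mutants, and the log2FC of *LHCB4.3* in *ubp12/13* ran between -0.43 and 0.11. Leaving the 43 genes out of the scaling, an alternative chosen after seeing the data, gave 37 lower. Among all 17916 genes tested, it gave 2719 lower and 2842 higher.

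Replicate numbers are shared by the genotypes but were not treated as pairs, since no comparison had every same-number correlation over 0.1: they were -0.165 to -0.0593 for *ubp12/13* and wt, -0.0397 to -0.00188 for *ubp12* and wt, -0.113 to 0.108 for *ubp13* and wt, 0.0417 to 0.292 for *ubp12/13* and *ubp12*, and 0.0148 to 0.254 for *ubp12/13* and *ubp13*. With the replicate number as a block, 37 of the 43 genes were again lower in *ubp12/13* than in wt, with *PSAL* lost (adjusted p = 0.0568) and *LHCB4.1* gained (0.0389). Over all genes the block gave 2206 lower and 2384 higher in *ubp12/13* than in wt, against 2712 and 2860 without it. For *ubp12/13* against *ubp12* it gave more calls, 2831 lower and 2899 higher (2418 and 2332 without it). For *ubp12/13* against *ubp13* it also gave more, 3098 and 3277 (2920 and 2967 without it). The cause of these shifts was not tested.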
